A study of Mus musculus with 6 samples.

Results

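RNA-seq of the hindlimb gastrocnemius (GAS) muscles was used to describe 10 genes of the muscle acetylcholine receptor and of the neuromuscular junction in 3 wildtype (WT) and 3 Kvβ2 knockout (KO) mice. The 10 genes were taken by their symbols, and all 10 were found among the 37979 genes of the deposited table. They are the 5 muscle nicotinic receptor subunits (*Chrna1*, *Chrnb1*, *Chrnd*, *Chrne* and *Chrng*), the 4 postsynaptic organizers *Lrp4*, *Musk*, *Dok7* and *Rapsn*, and the acetylcholinesterase gene *Ache*. Kvβ2, encoded by *Kcnab2*, is a cytoplasmic β-subunit of voltage-gated potassium channels. The KO mice lack Kvβ2 in the whole body and were obtained, like the WT mice, by interbreeding carriers of 1 null allele. All mice were untreated males of 20 weeks, and each of the 6 libraries was made from the GAS muscle of 1 mouse.

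The neuromuscular junction is the synapse through which a motor axon drives a muscle fiber. Acetylcholine released by the nerve opens a pentameric channel in the muscle membrane, which in fetal and denervated muscle holds the γ subunit (*Chrng*) and in innervated adult muscle the ε subunit (*Chrne*) in its place. Agrin from the nerve binds Lrp4, which activates the receptor kinase MuSK, and Dok7 inside the fiber keeps MuSK active, so that rapsyn (*Rapsn*) clusters the receptors under the nerve ending. Acetylcholinesterase ends the signal. Only the few nuclei beneath the synapse transcribe most of these genes strongly. In RNA of the whole muscle, a higher or lower share of synaptic nuclei therefore cannot be told apart from more or less RNA per nucleus.

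Values are FPKM, which are scaled to transcript length and to the mapped fragments of a library, so that levels of different genes can be set side by side. By the whole-fragment steps of low values, the KO libraries held an estimated 13940000 to 18040000 fragments and the WT libraries 19200000 to 20160000. *Kcnab2* (ENSMUSG00000028931, chr4:152390742-152477871 of GRCm38) was at 0.23, 0.10 and 0.11 FPKM in the WT libraries and at 0, 0.0151 and 0 FPKM in the KO libraries, each in the order of replicates 1, 7 and 8, so the groups did not overlap (two-sided exact permutation, p = 0.1, which is the lowest possible with 3 against 3). The muscle label was borne out by 10 of 10 fiber markers above 0 in each library, with a summed level of 42880 to 61584 FPKM in the WT and 58036 to 66892 FPKM in the KO libraries. Their median log2 fold change in the comparison below was 0.67, or 0.39 after the GC correction given below, and 0 of the 10 were called. For 3 of them (*Ckm*, *Acta1* and *Myh2*) every KO library lay above every WT library, as for 18.3% of all tested genes. The slow myosin gene *Myh7*, 1 of the 10 and singled out after its values were seen, was at 0.0513 FPKM in WT replicate 8 and at 15.2 to 77.4 FPKM in the other 5 libraries. Without WT replicate 8 the log2 fold changes below were 1.16 for *Dok7*, 1.14 for *Rapsn* and 0.49 for *Lrp4*. Of the 8 motor axon markers 7 were in the table, 3 of these (*Chat*, *Nefl* and *Snap25*) were listed at 0 in every library, and the 7 summed to 0.452 to 0.572 FPKM in the WT and 0.497 to 0.733 FPKM in the KO libraries. The 8 Schwann cell markers ranged widely within both genotypes, from 28.9 to 107 FPKM in the WT and from 33.2 to 139 FPKM in the KO libraries, and none was listed at 0 throughout. All 5 adipocyte markers had a log2 fold change above 0, with no overlap of their summed level, which was 3.84 to 17.4 FPKM in the WT and 18.4 to 83.4 FPKM in the KO libraries. Of the 5, 0 were called and 3 did not overlap between the genotypes, beside the same 18.3% of all tested genes. Their median log2 fold change was 2.02, or 1.84 after the GC correction. At an unadjusted p under 0.05 (limma), 4 of the 5 were higher both before and after it, beside 15.3% and 5.67% of all genes. KO replicate 7 was highest for each of the 5 markers, as for *Adipoq* at 40.4 FPKM against 9.86 and 11.1 FPKM in KO replicates 1 and 8. The 4 leukocyte markers in the table summed to 2.25 to 6.79 FPKM in the WT and 4.93 to 10.7 FPKM in the KO libraries, the 5 satellite cell markers to 3.32 to 5.61 and 5.91 to 6.44 FPKM, and the 5 markers of fibroblasts and tendon cells to 355 to 519 and 341 to 440 FPKM. The part of these cell types in the results below was not tested.

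KO was compared with WT in a limma fit across the 12334 genes whose mean FPKM reached 0.5. The fit is on log2(FPKM + 0.1), which understates the change of low genes, and a gene was called at a Benjamini-Hochberg adjusted p under 0.05. Of the 10 genes, 9 passed the filter on low values and *Chrng* did not. None of the 9 was called (limma), where 0.324% of all tested genes were called. At an unadjusted p under 0.05, 3 of the 9 (*Dok7*, *Rapsn* and *Lrp4*) were higher and 0 were lower in the KO mice, beside 15.3% of all tested genes that were higher and 10.9% that were lower. The same 3 genes were those with every KO library above every WT library, as were 18.3% of all tested genes, and 0 of the 9 had every KO library below every WT library, as had 16.2% of all tested genes. The median log2 fold change was 0.28 over the 9 genes and 0.010 over all tested genes.

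**Figure D1:**
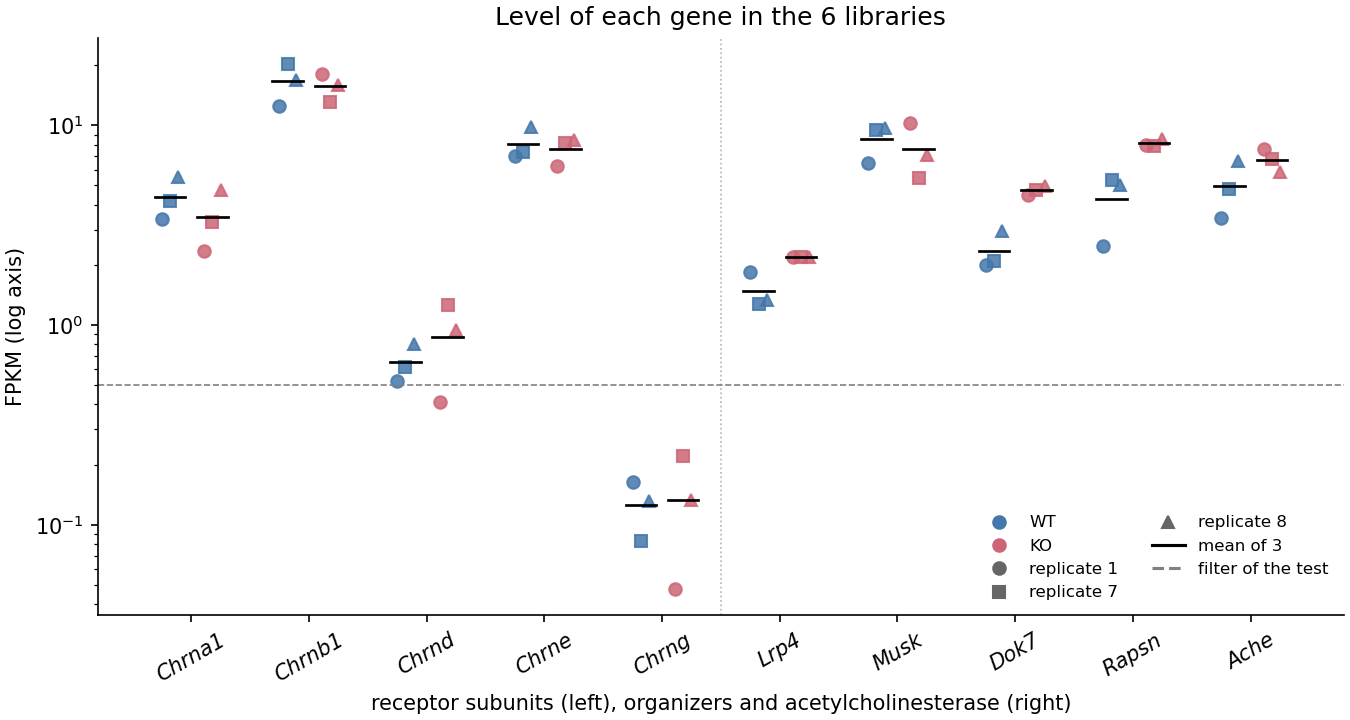
FPKM of each of the 10 genes (log axis) in the 3 WT (blue) and 3 KO (red) libraries, with a marker shape for each replicate number, a line at the mean of 3, and a dashed line at 0.5 FPKM, the filter of the test. The subunits run from about 16 FPKM for *Chrnb1* to about 0.13 FPKM for *Chrng* in both genotypes, and the red points lie above the blue points for *Lrp4*, *Dok7* and *Rapsn*.

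The receptor subunits kept the same order of levels in all 6 libraries. *Chrnb1* was highest, followed by *Chrne*, *Chrna1*, *Chrnd* and *Chrng*, and within each genotype the ranges of neighbors in this order did not overlap. *Chrnb1* (ENSMUSG00000041189, chr11:69784036-69795943), the β1 subunit found in both fetal and adult receptors, had levels of 12.5, 20.3 and 16.95 FPKM in the WT libraries, in the order of replicates 1, 7 and 8 kept throughout, and of 18.2, 13.1 and 16.003 FPKM in the KO libraries. The genotypes overlapped entirely, with a log2 fold change of -0.060 (95% interval -0.53 to 0.41, limma adjusted p = 0.875). *Chrna1* (ENSMUSG00000027107, chr2:73563215-73580338) encodes the α1 subunit, of which each receptor holds a pair and which carries the main part of the acetylcholine site. It was at 3.39, 4.16 and 5.53 FPKM in the WT mice and at 2.36, 3.27 and 4.76 FPKM in the KO mice. The lowest 2 libraries were KO and the highest was WT, but the ranges overlapped, and the log2 fold change was -0.35 (95% interval -1.001 to 0.30, limma adjusted p = 0.444). With 1 library left out it ranged from -0.60 without KO replicate 8 to -0.11 without KO replicate 1. *Chrnd* (ENSMUSG00000026251, chr1:87190607-87200070), the δ subunit, was at 0.526, 0.618 and 0.808 FPKM in the WT mice and at 0.413, 1.25 and 0.946 FPKM in the KO mice. The KO libraries held both its lowest and its highest value, and the log2 fold change of 0.28 (95% interval -0.67 to 1.23, limma adjusted p = 0.691) lay within their spread.

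*Chrne* (ENSMUSG00000014609, chr11:70614883-70619216), the adult subunit, was at 7.06, 7.37 and 9.80 FPKM in the WT mice and at 6.26, 8.18 and 8.42 FPKM in the KO mice. WT replicate 8 was highest and KO replicate 1 lowest, and between them the other WT libraries lay below the other KO libraries. The log2 fold change was -0.079 (standard error 0.18, 95% interval -0.49 to 0.33, limma adjusted p = 0.803). *Chrng* (ENSMUSG00000026253, chr1:87204657-87212694), the fetal subunit, was at 0.164, 0.0826 and 0.132 FPKM in the WT mice and at 0.0475, 0.220 and 0.132 FPKM in the KO mice. These levels rest on few fragments, an estimated 8.79, 4.41 and 7.38 in the WT and 1.84, 11.01 and 5.51 in the KO libraries if all came from its longest annotated transcript of 2780 bases. Summed over a genotype and rounded, these are 21 fragments in the WT (95% exact Poisson interval 13 to 32.1) and 18 in the KO libraries (10.7 to 28.4), intervals that cover counting error only. KO replicate 1 was lowest and KO replicate 7 highest, and the mean of log2(FPKM + 0.1) was lower by 0.0086 in the KO than in the WT mice (exact permutation test, two-sided, p = 1.0).

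The fetal to adult balance was taken within each library as the FPKM of *Chrng* over that of *Chrng* and *Chrne* together. The fetal share was 2.27%, 1.11% and 1.33% in WT replicates 1, 7 and 8 and 0.753%, 2.61% and 1.55% in KO replicates 1, 7 and 8. The mean share was 1.57% ± 0.617 (SD, n = 3) in WT muscle and 1.64% ± 0.934 (SD, n = 3) in KO muscle (two-sided exact permutation, p = 1.0). The adult subunit therefore stood 37.3 to 132 times above the fetal subunit in the KO libraries and 43.06 to 89.2 times above it in the WT libraries. On the log2 scale with 0.1 FPKM added to both genes, the ratio of *Chrng* to *Chrne* was -5.18 ± 0.36 (SD, n = 3) in WT and -5.11 ± 0.38 (SD, n = 3) in KO muscle, a difference of 0.070 (exact permutation test, two-sided, p = 0.8). The sign of this difference turned with 1 library, to -0.14 without KO replicate 7, -0.018 without WT replicate 7 and -0.050 without WT replicate 8. The few fragments of *Chrng*, the spread between mice and the 3 libraries per genotype all limit which change of the balance could be detected. With 3 against 3 the exact permutation test cannot give a p under 0.1.

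**Figure D2:**
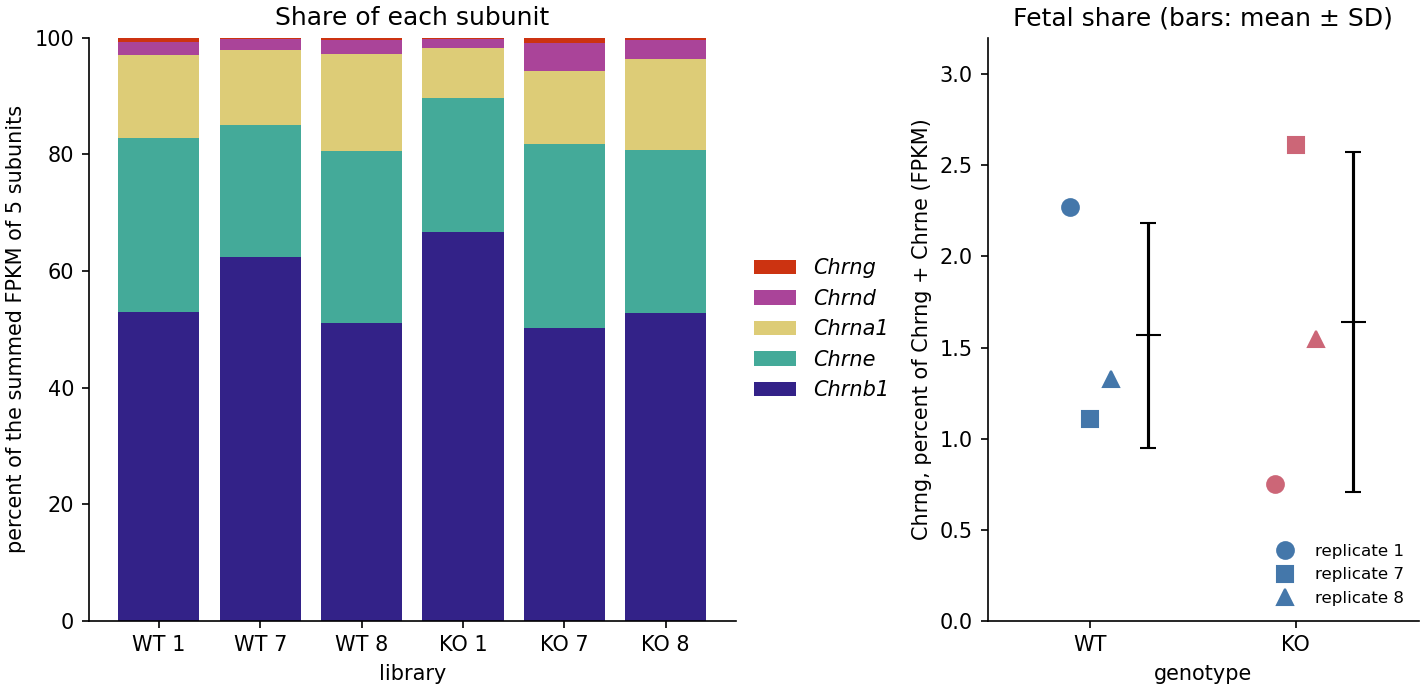
Left, percent of the summed FPKM of the 5 receptor subunits taken by each subunit in each library. Right, *Chrng* as a percent of *Chrng* and *Chrne* together, with a point for each library and bars at the mean ± SD of 3. *Chrnb1* takes 50.3% to 66.7% of the sum and *Chrng* under 1% in each library, and the fetal shares of the KO libraries (0.753% to 2.61%) span those of the WT libraries (1.11% to 2.27%).

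The summed level of the 5 subunits overlapped between the genotypes. It reached 23.6, 32.5 and 33.2 FPKM in the WT mice, against 27.25, 25.99 and 30.3 FPKM in the KO mice, so the KO values lay inside the WT range. KO replicate 1 had the lowest level of all 6 libraries for *Chrna1*, *Chrnd*, *Chrne* and *Chrng*, and the second highest for *Chrnb1*. The ratio of *Chrnb1* to *Chrne* was accordingly 2.90 in that library, against 1.596 and 1.90 in the other KO libraries and 1.77, 2.75 and 1.73 in the WT replicates 1, 7 and 8.

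Promoter sequences were printed for the fetal and adult subunits, whose switch the balance describes, and for *Dok7*, the organizer with the lowest p. They are RefSeq windows on GRCm38.p6 from 250 bases before to 50 bases after the start site, read 5′ to 3′ on the strand of the gene, and 7 of the 10 genes had such a window (all but *Chrnd*, *Lrp4* and *Rapsn*). Capitals mark the E-box (CANNTG), the motif of the myogenic bHLH factors, and the N-box (CCGGAA, or its reverse complement), the motif of ETS factors such as GABP. Both strands were searched. The *Chrne* window (chr11:70619145-70619444, minus strand) holds 1 E-box, which begins 138 bases before the start site, and 1 N-box, which begins 76 bases before it. The *Chrng* window (chr1:87205561-87205860, plus strand) holds 3 E-boxes, 155, 132 and 75 bases before the start site, and no N-box. The first of the 2 *Dok7* windows (chr5:35056516-35056815, plus strand) holds 1 E-box, 149 bases before the start site, and no N-box.

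Chrne: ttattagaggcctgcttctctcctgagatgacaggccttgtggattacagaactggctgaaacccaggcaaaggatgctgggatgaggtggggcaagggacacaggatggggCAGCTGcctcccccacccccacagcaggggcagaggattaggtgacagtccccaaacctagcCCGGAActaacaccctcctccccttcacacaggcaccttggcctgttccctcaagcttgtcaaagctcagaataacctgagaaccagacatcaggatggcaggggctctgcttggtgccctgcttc

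Chrng: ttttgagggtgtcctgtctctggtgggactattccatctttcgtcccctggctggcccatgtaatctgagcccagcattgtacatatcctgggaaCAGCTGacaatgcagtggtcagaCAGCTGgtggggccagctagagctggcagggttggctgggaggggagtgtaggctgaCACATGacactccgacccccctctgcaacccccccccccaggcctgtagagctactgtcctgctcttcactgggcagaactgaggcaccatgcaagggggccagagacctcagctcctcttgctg

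Dok7: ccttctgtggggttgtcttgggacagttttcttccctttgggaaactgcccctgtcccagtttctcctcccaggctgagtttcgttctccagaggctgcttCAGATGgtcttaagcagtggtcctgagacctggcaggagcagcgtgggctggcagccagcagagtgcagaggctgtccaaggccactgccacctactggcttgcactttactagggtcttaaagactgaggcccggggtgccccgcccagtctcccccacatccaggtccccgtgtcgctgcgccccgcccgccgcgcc

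The N-box of *Chrne* was the only one in the 8 windows of these 7 genes, and 14.9% of all 32851 RefSeq windows of this length hold one. An E-box was found in 7 of the 8 windows, while 72.3% of all windows hold at least 1. Each of the 7 genes had an E-box in at least 1 window, with 3 each for *Chrna1*, *Chrnb1*, *Chrng* and *Musk*. The second *Dok7* window had none. These matches describe letters in the windows and are not evidence of binding.

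Among the organizers, *Lrp4*, *Dok7* and *Rapsn* were higher in every KO than in every WT library, and *Musk* overlapped between the genotypes. *Musk* (ENSMUSG00000057280, chr4:58285960-58374303), the receptor kinase, was at 6.47, 9.45 and 9.67 FPKM in the WT mice and at 10.3, 5.43 and 7.07 FPKM in the KO mice. The KO libraries held both the highest and the lowest value, and the log2 fold change was -0.19 (95% interval -0.79 to 0.41, limma adjusted p = 0.660). *Lrp4* (ENSMUSG00000027253, chr2:91457511-91513779), the agrin receptor, was at 1.84, 1.27 and 1.33 FPKM in the WT mice and at 2.19, 2.20 and 2.19 FPKM in the KO mice. The 3 KO values were nearly equal and lay above all WT values, and its log2 fold change was 0.55 (standard error 0.18, 95% interval 0.13 to 0.98), without being called (limma adjusted p = 0.125). *Dok7* (ENSMUSG00000044716, chr5:35056766-35087839), the cytoplasmic activator of MuSK, was at 1.99, 2.10 and 2.96 FPKM in the WT mice and at 4.46, 4.76 and 4.95 FPKM in the KO mice. Every KO library lay above every WT library, and the log2 fold change of 0.99 (standard error 0.17, 95% interval 0.59 to 1.40) is a 1.99-fold difference. *Dok7* had the lowest p of the 9 genes, with an adjusted p (limma) of 0.0667, and was not called.

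*Rapsn* (ENSMUSG00000002104, chr2:91035620-91045729), the scaffold that clusters the receptors, was at 2.48, 5.34 and 5.04 FPKM in the WT mice and at 7.96, 7.90 and 8.58 FPKM in the KO mice. The KO libraries lay close together and above all WT libraries, of which replicate 1 was far below the other WT libraries. The log2 fold change was 0.99 (standard error 0.27, 95% interval 0.34 to 1.63, limma adjusted p = 0.0962), and it was 0.64 without WT replicate 1. *Ache* (ENSMUSG00000023328, chr5:137287519-137294466), which encodes the enzyme that breaks down acetylcholine, was at 3.45, 4.83 and 6.61 FPKM in the WT mice and at 7.61, 6.77 and 5.85 FPKM in the KO mice. WT replicate 8 lay among the KO libraries, and the log2 fold change was 0.47 (95% interval -0.071 to 1.02, limma adjusted p = 0.237), and 0.24 without WT replicate 1. *Chrne*, *Rapsn* and *Ache* overlap annotated genes on the opposite strand. Shared bases were counted over whole genes, introns included, and the overlap of exons was not measured. The gene 4930544D05Rik shares 1043 bases with *Chrne* and was at 0.387 to 1.44 FPKM in the 6 libraries. Gm13778 shares 1638 bases with *Rapsn* and was at 0.495 to 1.197 FPKM. Gm42456 shares 1144 bases with *Ache*, and no level was found for it by its symbol. The libraries kept the strand of the RNA, but whether the quantification used it is not stated.

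In the WT muscle the organizers and *Ache* ranked *Musk*, *Ache*, *Rapsn*, *Dok7* and *Lrp4* by mean FPKM, and in the KO muscle *Rapsn*, *Musk*, *Ache*, *Dok7* and *Lrp4*. Neighbors in these orders overlapped in their ranges, except *Dok7* and *Lrp4* in both genotypes and *Ache* and *Dok7* in the KO muscle. Ratios within a library were chosen after the values were seen and are therefore given without a test. They set these genes against each other without the scaling of the library, but they keep the trend with GC content described below. *Dok7*, *Rapsn*, *Ache* and *Lrp4* have a GC content of 60.2%, 58.7%, 59.8% and 53.8%. That of *Musk*, *Chrnb1* and *Chrne* is 50.2%, 51.9% and 54.5%. The ratio of *Dok7* to *Musk* was 0.308, 0.223 and 0.306 in WT replicates 1, 7 and 8 and 0.433, 0.877 and 0.699 in KO replicates 1, 7 and 8. The ratio of *Rapsn* to *Chrnb1* was 0.198, 0.263 and 0.297 in the WT and 0.438, 0.605 and 0.536 in the KO replicates. For both ratios the KO libraries lay above the WT libraries. The genotypes overlapped in the ratio of *Lrp4* to *Musk*, at 0.284, 0.135 and 0.138 in the WT and 0.212, 0.405 and 0.310 in the KO replicates. That of *Ache* to *Chrne*, at 0.489, 0.655 and 0.674 in the WT and 1.22, 0.828 and 0.694 in the KO replicates, did not overlap.

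The GC content of a transcript moved with these differences. Across all tested genes the median log2 fold change was -0.32 at a GC content of 40% to 42% and 0.69 at 60% to 62%. *Dok7*, *Ache* and *Rapsn* have the highest GC content of the 10 genes, at 60.2%, 59.8% and 58.7%, and *Chrna1* has the lowest, at 46.3%. With a loess curve on GC content removed from each library, the log2 fold change of *Dok7* was 0.37 (95% interval 0.055 to 0.69), that of *Rapsn* 0.44 (-0.069 to 0.95) and that of *Lrp4* 0.33 (-0.15 to 0.82). That of *Ache* turned to -0.12 and that of *Chrnd* to -0.026, while *Chrne* moved to -0.35 (-0.69 to -0.00093). None of the 9 genes was called after the correction, where 0.117% of the 11985 genes with known GC content were called (limma). *Dok7* was the 1 gene with an unadjusted p under 0.05 and higher, as were 5.67% of these genes, and *Chrne* the 1 that was lower, as were 5.47%. They were also the 2 genes without overlap between the corrected libraries, beside 8.89% of the genes that lay higher and 9.55% that lay lower. The median over the 9 genes was -0.12 after the correction and 0.00083 over all genes.

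**Figure D3:**
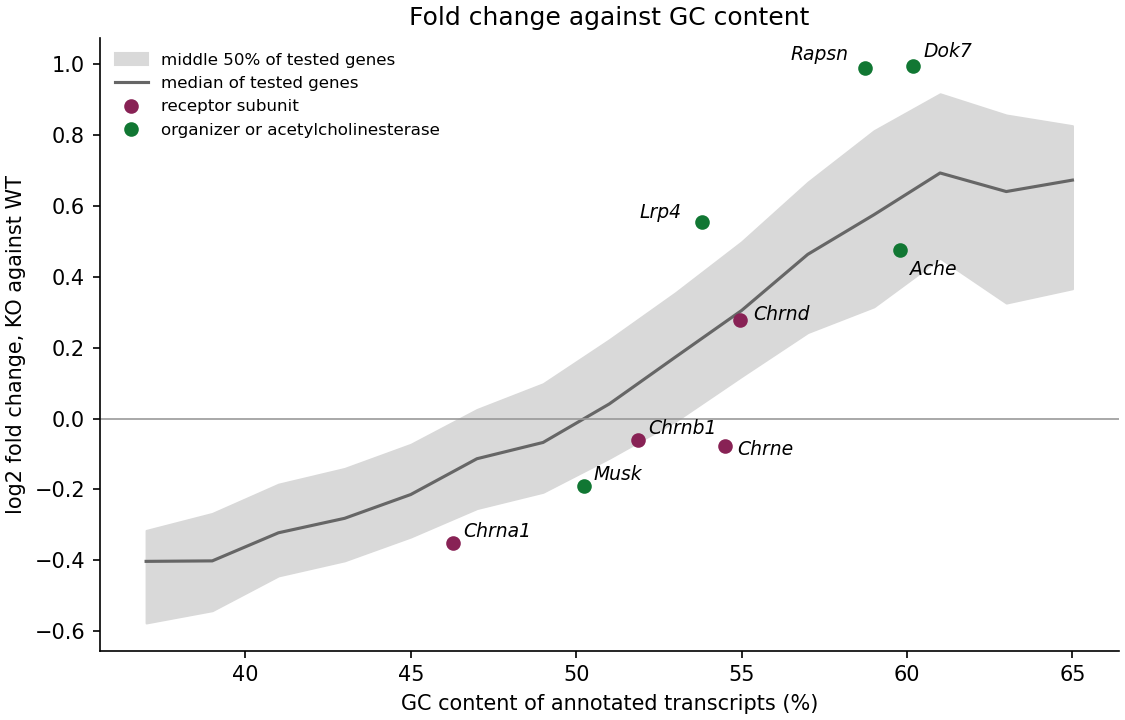
Log2 fold change of KO against WT on the y axis against GC content of the annotated transcripts in percent on the x axis. The line and band give the median and the middle 50% of all tested genes in bins of 2% GC with at least 20 genes, and the points are the 9 tested genes. The median rises from -0.40 at 36% to 38% GC to 0.69 at 60% to 62%, *Dok7*, *Rapsn* and *Lrp4* lie above the band, *Chrna1*, *Musk* and *Chrne* lie below it, and the other 3 lie within it.

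**Figure D4:**
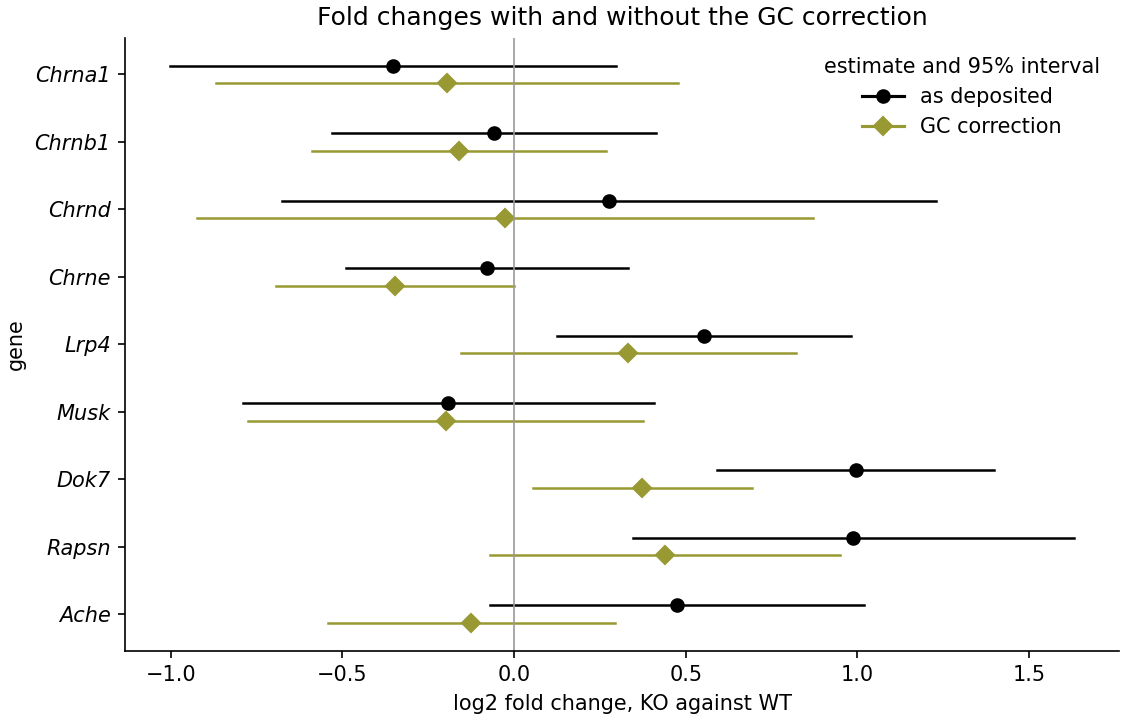
Log2 fold change of KO against WT with its 95% interval (limma) for the 9 tested genes, from the FPKM as deposited (black) and after the GC correction (olive diamonds). The intervals of *Dok7*, *Rapsn* and *Lrp4* exclude 0 in the deposited values, and after the correction that of *Dok7* still lies above 0 (0.055 to 0.69) and that of *Chrne* just below it.

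With limma's weights for libraries, which lower the influence of the more variable ones, *Dok7* (adjusted p = 0.00579), *Lrp4* (adjusted p = 0.0115) and *Rapsn* (adjusted p = 0.0267) were called, 3 of the 9 genes beside 25.5% of all tested genes. No other alternative run gave a call among the 9 genes, and their adjusted p (limma) ranged over the alternatives from 0.00579 to 0.492 for *Dok7*, 0.0115 to 0.639 for *Lrp4* and 0.0267 to 0.585 for *Rapsn*. The log2 fold changes of *Dok7*, *Rapsn* and *Lrp4* stayed above 0 in all 19 alternatives, with ranges of 0.37 to 1.16, 0.44 to 1.18 and 0.33 to 0.71.

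The wider pathway was followed through 4 lists of genes, without the 10 above, and none gave a called gene but *Ncam1*. Of the 18 other genes of the agrin, Lrp4 and MuSK pathway, all tested, 0 were called, 3 were higher and 4 lower at an unadjusted p under 0.05, beside 15.3% and 10.9% of all tested genes, and the median log2 fold change was 0.0025. *Dvl1*, an adaptor that binds MuSK, averaged 24.8 ± 3.13 FPKM in WT muscle and 34.4 ± 1.32 FPKM in KO muscle (SD, n = 3 each), with a log2 fold change of 0.48 (limma adjusted p = 0.0838), and its log2 fold change was -0.13 after the GC correction. *Pak1*, a kinase of receptor clustering, averaged 21.4 ± 1.64 FPKM in WT muscle and 14.4 ± 3.38 FPKM in KO muscle (SD, n = 3 each), with a log2 fold change of -0.59 (limma adjusted p = 0.101), or -0.53 after the correction. *Cttn*, which encodes the actin regulator cortactin, had a log2 fold change of 0.32 (limma adjusted p = 0.121), or 0.14 after the correction. Agrin itself, named for its role after its values were seen, was at 3.58, 2.42 and 2.34 FPKM in the WT mice and at 2.92, 3.94 and 2.91 FPKM in the KO mice, and *Agrn* overlapped between the genotypes.

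Of the 9 genes of neuregulin signaling and its ETS factors, which drive transcription in synaptic nuclei, 7 were tested and 0 were called, and 0 were higher and 1 was lower at an unadjusted p under 0.05, beside 15.3% and 10.9% of all tested genes. *Nrg1* was listed at 0 in every library. *Gabpb1*, the partner of the N-box factor GABPα, had a log2 fold change of -0.48 (limma adjusted p = 0.120), *Gabpb2*, its paralog, of -0.18 (limma adjusted p = 0.421), and the receptor gene *Erbb2* of 0.76 (limma adjusted p = 0.203). After the GC correction these were -0.26 for *Gabpb1*, 0.0095 for *Gabpb2* and 0.26 for *Erbb2*. *Gabpa*, which encodes GABPα itself, is named for its role after its values were seen. Its log2 fold change was 0.093 (limma adjusted p = 0.700), and 0.40 after the GC correction (limma adjusted p = 0.429). *Erbb2* was at 0.429, 0.432 and 0.358 FPKM in the WT mice and at 0.599, 1.09 and 0.653 FPKM in the KO mice, without overlap. The median log2 fold change of this list was 0.093, 0.0095 after the GC correction, and from 0.052 without KO replicate 7 to 0.19 without KO replicate 1.

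Of the 14 genes of the synaptic basal lamina, the esterase anchors and the postsynaptic scaffold, 13 were tested, 0 were called, and 1 was higher and 0 were lower at an unadjusted p under 0.05, beside 15.3% and 10.9% of all tested genes. The median log2 fold change was 0.18, and it was 0.029 after the GC correction and 0.036 without KO replicate 7. *Lamb2*, the laminin β2 chain of the synaptic cleft, which vessels also express, was at 4.86, 7.98 and 7.79 FPKM in the WT mice and at 15.1, 19.5 and 14.5 FPKM in the KO mice. Its KO libraries all lay above its WT libraries. The log2 fold change was 1.26 (standard error 0.22, limma adjusted p = 0.0667), and 0.72 after the GC correction (limma adjusted p = 0.257). *Prima1*, a membrane anchor of cholinesterase, overlapped between the genotypes, at 0.508 to 1.16 FPKM in the WT and 0.884 to 3.61 FPKM in the KO libraries (log2 fold change 1.15, limma adjusted p = 0.203, and 0.61 after the correction). *Scn4a*, the voltage-gated sodium channel of skeletal muscle, was at 14.8, 33.1 and 33.2 FPKM in the WT mice and at 48.2, 34.8 and 38.9 FPKM in the KO mice, and its log2 fold change was 0.67 (limma adjusted p = 0.221), or 0.39 after the correction. WT replicate 1 stood far below the other libraries for this gene.

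Of 11 genes known to change in denervated muscle, 7 were tested, 1 was called higher and 0 were called lower, beside 0.324% of all tested genes called. At an unadjusted p under 0.05, 2 were higher and 1 was lower, beside 15.3% and 10.9% of all tested genes. The median log2 fold change was 0.41, and it was -0.056 after the GC correction, 0.23 without WT replicate 1 and 0.67 without WT replicate 8. The called gene was *Ncam1*, a cell adhesion molecule, at 1.12, 1.31 and 1.19 FPKM in the WT mice and at 2.90, 3.46 and 3.84 FPKM in the KO mice. Its log2 fold change was 1.41 (standard error 0.17, limma adjusted p = 0.02999). After the GC correction it was 1.41 and still called (limma adjusted p = 0.0292), where 0.117% of genes were called. *Myh8*, the perinatal myosin, had a log2 fold change of 1.15 (limma adjusted p = 0.105) and *Gadd45a*, a stress-induced gene, of -0.36 (limma adjusted p = 0.104). After the GC correction these were 1.23 for *Myh8* and -0.83 for *Gadd45a* (limma adjusted p = 0.116). *Chrng*, whose transcript is known to rise in denervated muscle, overlapped between the genotypes.

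**Figure D5:**
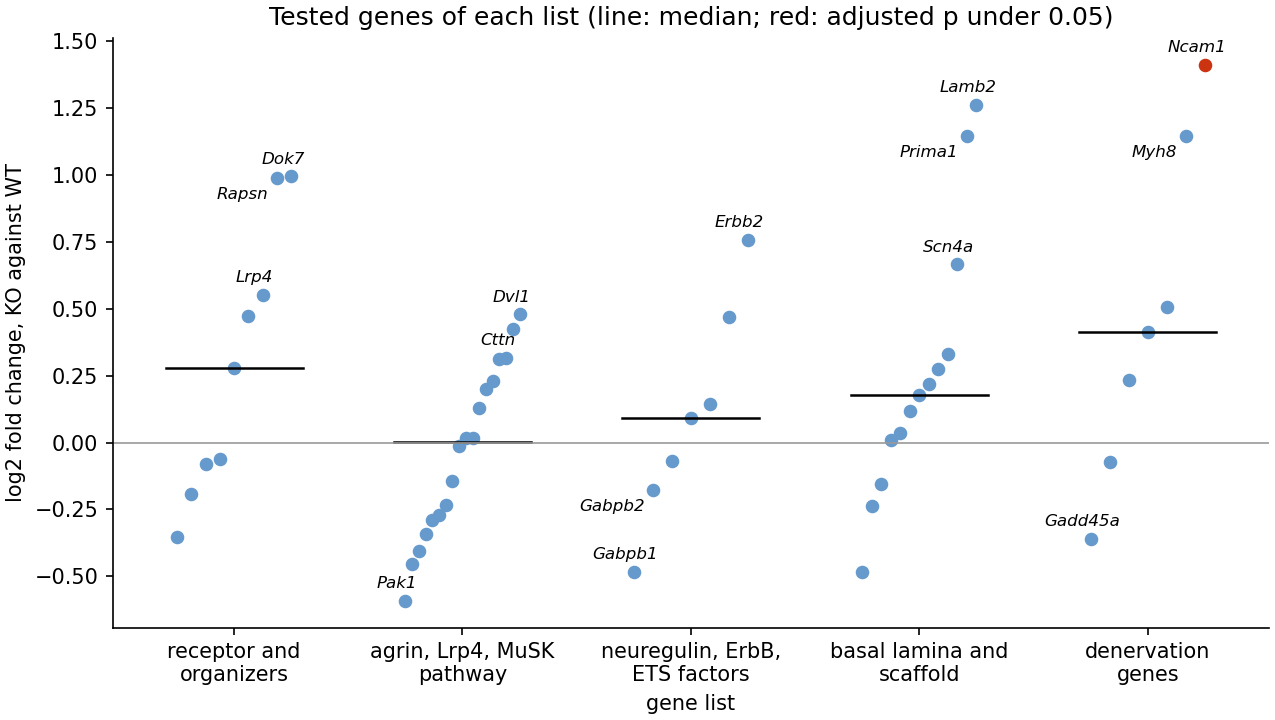
Log2 fold change of KO against WT for each tested gene, arranged in 5 columns for the 9 genes of the receptor and its organizers and for the 4 lists of the wider pathway. Lines mark the medians (0.28, 0.0025, 0.093, 0.18 and 0.41), and *Ncam1*, the called gene, is in red.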

How the data were processed

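Total RNA of the GAS muscles of 3 WT and 3 KO mice was sequenced from stranded mRNA libraries. The FPKM deposited by the authors come from Cufflinks, run on reads that TopHat had placed on GRCm38. Versions and the annotation release are not given in the sources used here, and no counts were used. An FPKM of exactly 0 can be a failed estimate, so such genes are called listed at 0. Groups came from the sample titles.

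The 10 genes and all gene lists were chosen with earlier results of these data known. Genes of the lists were named if called or among the 3 with the lowest p. A gene of these lists is not reported here and was left out of their counts. A symbol with 2 entries was taken as the entry found in GENCODE vM21, which held 32935 of the 37979 gene identifiers and gave coordinates, length and GC content. KO and WT were compared by limma 3.58.1 (R 4.3.3), which was fitted to log2(FPKM + 0.1) of genes whose mean reached 0.5 FPKM, with a variance trend and Benjamini-Hochberg adjustment, and the script was tested on simulated data. Single values were compared by exact permutation tests in scipy 1.17.1. Depth was estimated from low FPKM of genes with 1 transcript of 1500 to 6000 bases, of which 88.6% to 93.4% fell within 0.15 of a whole fragment. GC content was corrected by loess with a span of 0.3. Alternatives covered the pseudocount, the filter, genes listed at 0, scaling, the variance model, library weights, the replicate number, GC content, length and leaving out each library. No 2 libraries shared more than 1 equal value among the 14983 genes above 0 in all 6, so none was a copy of another. Each counted as 1 replicate because the study gives 3 mice per group.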

Additional observations from a re-analysis of the deposited data

How the results depend on the processing

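The number of genes called was 31 higher and 9 lower in the KO mice, and the number of higher genes moved with most settings. With a pseudocount of 1 the numbers were 7 and 4, and without genes listed at 0 in any library 1 and 0 (limma). The number of higher genes was 9 without the filter, 11 with upper quartile scaling, 12 without the variance trend, 19 with the length correction, 6 with the GC correction, 6 with the replicate block and 5 with both. In these same runs the number of lower genes moved less, from 7 to 11. Library weights gave 1863 higher and 1284 lower genes. With each library left out the numbers were 6 to 19 higher and 5 to 19 lower. None of the 9 tested genes of the junction was called in any of these but the library weights, with 3. Whether the replicate numbers pair the mice is not stated. Deviations of same-numbered libraries correlated at -0.025, -0.080 and 0.034 across genes. Only those of number 8 correlated best with their own number. With 3 libraries in each genotype such correlations cannot settle the pairing. The block changed no call among the 9 genes, none of which was called without it.

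*Chrna1*, *Lrp4*, *Dok7* and *Rapsn* kept their direction in all alternatives. With each library left out, *Chrna1* ranged from -0.60 to -0.11 and *Ache* from 0.24 to 0.70. *Chrnb1* ranged from -0.25 to 0.099, *Chrnd* from -0.019 to 0.68, *Chrne* from -0.17 to 0.067 and *Musk* from -0.43 to 0.023 with each library left out, and *Chrne* was 0.055 with library weights. The GC correction, with or without the replicate block, reversed *Chrnd* (-0.026) and *Ache* (-0.12). The difference in fetal to adult balance was -0.013 with a pseudocount of 0.01 and -0.14 to 0.28 with each library left out. That of *Chrng* was 0.0070 with a pseudocount of 1 and -0.27 to 0.29 with each library left out. The cause of the reversals was not tested. *Chrng* rests on few fragments, and 3 against 3 libraries cannot give an exact p under 0.1.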

Other observations

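Of 16 neuronal nicotinic and muscarinic receptor genes, *Chrna10* alone passed the filter on low values. *Chrna10*, the α10 subunit known from cochlear hair cells, had levels of 4.75, 5.13 and 4.30 FPKM in the WT libraries and of 3.37, 3.67 and 4.05 FPKM in the KO libraries, each in the order of replicates 1, 7 and 8. The KO values were all under the WT values, and the log2 fold change was -0.35 (standard error 0.13, limma adjusted p = 0.158), or -0.67 after the GC correction (limma adjusted p = 0.257). It was thus at a higher level than *Chrnd* in each library. Of the other genes of this list, 5 were listed at 0 in every library.

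The 3 tested genes whose log2 values followed those of *Chrne* most closely over the 6 libraries were Gm11611 (Pearson's r = 0.974), BC017643 (0.971) and *Zfp189* (0.970). These are the highest of 12325 genes, 33 of which had an r over 0.9, so they are given as a description without a p.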
